A study of Rattus norvegicus with 21 samples.

Results

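Fatty acid oxidation genes of mitochondria and peroxisomes were followed in the livers of male Harlan Sprague Dawley rats given 2-ethylhexyl diphenyl phosphate, a plasticiser and flame retardant of the organophosphate ester class. The set held 39 genes of the 14218 measured, chosen by name, and all 39 were matched to a probe set annotated with 1 gene symbol only. Where a gene had several, the one brightest on average across the 21 arrays stood for it. By the place where their proteins are best known to act, 19 genes were counted as mitochondrial, 16 as peroxisomal and 4 (Acot1, Amacr, Crat and Eci2) as cytosolic or shared.

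The rats received the compound once a day by gavage in corn oil for 4 days, and the liver was taken on day 5. There were 6 arrays of rats given corn oil alone (the vehicle) and 3 arrays for each dose, which were 61.2, 122.5, 244.6, 489.2 and 978.5 mg/kg. The series title abbreviates the compound as EHDP and the sample labels as EDHP, and the protocol speaks of 5 vehicle rats whereas 6 arrays carry the dose 0; all 6 were used as vehicle. RNA came from pieces of the left liver lobe, so each value is an average over all cells of the tissue. No age, batch or scan date was given in the labels. The p-values set differences between group means against the spread between arrays of the same group.

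Mitochondria break down short, medium and long-chain fatty acids for energy and, in liver, for ketone bodies. Long chains are joined to coenzyme A, carried across the inner membrane as carnitine esters, and shortened by repeated rounds of dehydrogenation, hydration, a further dehydrogenation and thiolysis, with the electrons of the first step handed to the electron transfer flavoprotein. Peroxisomes shorten very long and branched chains and bile acid precursors, release hydrogen peroxide, and hand shortened chains on as carnitine esters. In rat liver, many genes of both pathways are known targets of PPARA, the receptor through which peroxisome proliferators act, and Ehhadh, Acot1 and Pex11a are among its textbook targets.

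The genes called at any dose or for the trend over dose are introduced here with their positions in the rat assembly GRCr8. Crot, which makes carnitine esters of shortened chains in peroxisomes, lies at chr4:26031729-26088057 and was read by probe set 1368426_at. Crat, which does so for acetyl groups, lies at chr3:34073504-34087099 (probe set 1371886_at). Acsl5, which activates long-chain fatty acids, lies at chr1:264294851-264341943 (1386926_at), and Acot2, which splits acyl-CoA in mitochondria, at chr6:109341426-109352818 (1391433_at). Decr1, the dienoyl-CoA reductase for unsaturated chains, lies at chr5:34208195-34236074 (1367777_at), and Etfa, the alpha subunit of the electron transfer flavoprotein, at chr8:64731192-64787965 (1371253_at). Hsd17b4, the D-bifunctional protein of the peroxisomal pathway, lies at chr18:45515427-45604467 (1367672_at). Abcd2, a peroxisomal transporter of very long-chain acyl-CoA, lies at chr7:124142597-124191202 (1368561_at), and Acadm, the medium-chain acyl-CoA dehydrogenase, at chr2:245518693-245542864 (1367702_at).

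RefSeq promoter windows of GRCr8, 250 bases before to 50 after a start site, were found for 36 of the 39 genes, and not for Acaa2, Acadl or Decr1. The direct repeat AGGTCANAGGTCA, the form bound by PPARA with its partner RXR, was in 0 of the 36 windows and in 0.0538% of all 33469. With the fourth base of each copy free (AGGNCANAGGNCA) it was again in 0 of the 36, against 0.415% of all windows, and the D-box TTANGTAA was in 0 of the 36, against 2.24%. After these gave no match, the half-site AGGTCA and the E-box CACGTG were added. The half-site was in 8 of the 36 windows (22.2%) and in 16.2% of all, and the E-box in 0 of the 36 and 6.42% of all. Both strands were read, and the half-site is contained in the first repeat. The windows with the half-site were those of Abcd2, Acadvl, Amacr, Cat, Eci1, Eci2, Hadhb and Hsd17b4. Shown are the windows of Abcd2 (chr7:124191153-124191452, minus strand) and Hsd17b4 (chr18:45515177-45515476, plus strand), the only ones among these 8 whose genes were called against the vehicle, with the half-site or its reverse complement TGACCT in capitals, and that of Crot (chr4:26052874-26053173, plus strand), the gene that fell most, which holds none of the 5 motifs and lies within the gene's annotated span.
Abcd2: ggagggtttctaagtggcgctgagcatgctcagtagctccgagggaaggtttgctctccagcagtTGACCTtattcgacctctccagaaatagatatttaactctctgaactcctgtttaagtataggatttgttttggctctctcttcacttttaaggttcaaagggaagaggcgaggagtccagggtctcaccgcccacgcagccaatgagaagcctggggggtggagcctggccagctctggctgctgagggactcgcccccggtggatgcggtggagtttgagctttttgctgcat
Hsd17b4: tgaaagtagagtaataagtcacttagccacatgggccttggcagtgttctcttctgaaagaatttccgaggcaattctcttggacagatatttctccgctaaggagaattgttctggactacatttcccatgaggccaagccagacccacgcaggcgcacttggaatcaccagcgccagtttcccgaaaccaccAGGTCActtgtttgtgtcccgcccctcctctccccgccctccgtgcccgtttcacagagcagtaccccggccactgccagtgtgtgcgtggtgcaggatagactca
Crot: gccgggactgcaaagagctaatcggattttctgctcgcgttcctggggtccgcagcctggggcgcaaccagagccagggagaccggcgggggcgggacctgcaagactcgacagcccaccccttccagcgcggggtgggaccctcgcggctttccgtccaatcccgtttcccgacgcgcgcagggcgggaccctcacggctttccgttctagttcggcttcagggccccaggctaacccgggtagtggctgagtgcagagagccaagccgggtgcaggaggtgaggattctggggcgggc
A match describes the letters of a window and shows no binding.

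Most of the set was among the brightest transcripts of the liver. On the log2 signal scale 34 of the 39 genes lay above the median gene, and 27 lay in the top 10% of all genes. Catalase (Cat) averaged 14.08, Scp2, whose long form is the peroxisomal thiolase, 14.02, and Acsl1, the main activating enzyme for long chains, 13.67. At the other end stood Abcd2 at 5.89, Acadsb, which handles short and branched chains, at 5.36, and Acot1, the cytosolic thioesterase, at 3.54. Only 1.26% of genes lay below Acot1, so that probe set sat near the lowest signals of the arrays in every group, with vehicle values from 3.39 to 3.70 and a mean of 3.47 at 978.5 mg/kg. Levels of different probe sets depend on the probes and are given to show where each was measured, not to rank the genes.

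The vehicle arrays set the spread against which doses were read. The median SD over the 6 vehicle arrays was 0.11 for the mitochondrial genes, 0.18 for the peroxisomal genes and 0.13 for all genes. Acox2, an oxidase for branched chains and bile acid precursors, had the narrowest range, 0.12 from the lowest to the highest vehicle array, and Hacl1, the lyase of alpha-oxidation, the widest, at 1.12.

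One array stood apart in this set. Replicate 3 at 489.2 mg/kg was the lowest of the 21 arrays in 19 of the 39 genes, whereas 4.63% of all genes were lowest on it. Its median over the 39 genes was -0.27 relative to the vehicle mean, against -0.06 and -0.00 on the other arrays of that dose. The mitochondrial median on it was -0.28 and the peroxisomal median -0.20. Counts, medians and the larger differences at 489.2 mg/kg are therefore also given without it. Across all genes, vehicle replicate 6 had the lowest mean correlation with the other arrays, 0.988, where the highest was 0.994.

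**Figure D1:**
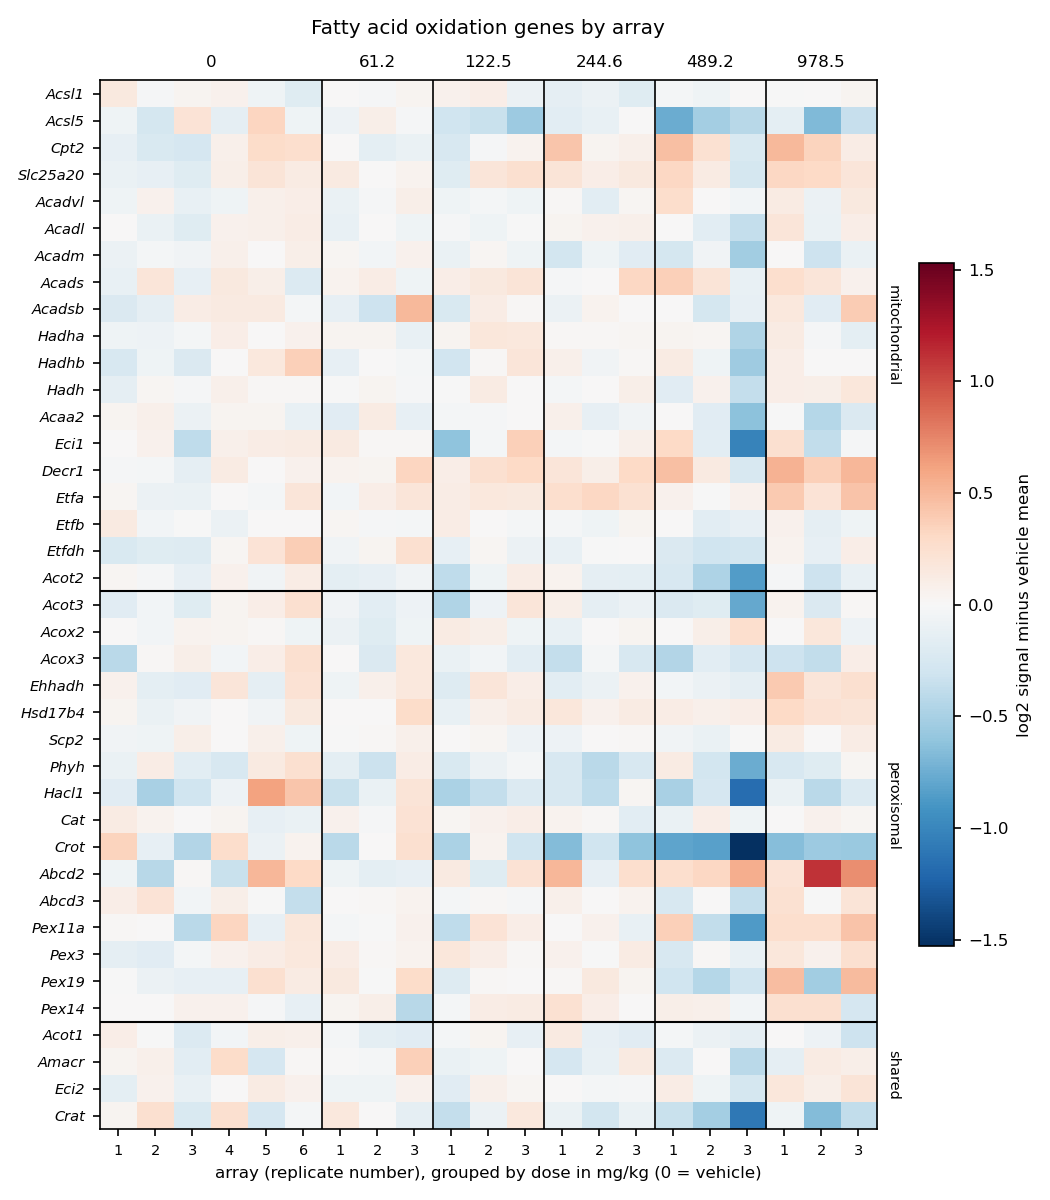
Log2 signal minus the vehicle mean for each of the 39 genes (rows, by compartment and role) on each of the 21 arrays (columns, vehicle and then rising dose in mg/kg). Red is above and blue below the vehicle mean. Replicate 3 at 489.2 mg/kg is the lowest array in 19 of the 39 rows.

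At the 3 lower doses the set stayed close to the vehicle. None of the 39 genes was called at 61.2 mg/kg, where 0.0141% of all genes were, with 0 at an unadjusted p under 0.05 (5.48% of all genes) and differences between -0.13 and 0.14 on the log2 scale. At 122.5 mg/kg again 0 were called, against 0.113% of all genes, with 1 at an unadjusted p under 0.05 (6.06% of all genes): Acsl5 stood at -0.40 ± 0.12 (SE, limma adjusted p = 0.591). At 244.6 mg/kg 1 gene was called, against 2.95% of all genes. A call means a limma p under 0.05 after Benjamini-Hochberg adjustment over all 14218 genes, each dose being set against the same 6 vehicle arrays.

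That gene was Etfa, and its rise at 244.6 mg/kg was small. The 244.6 mg/kg arrays read 12.56, 12.62 and 12.52 on the log2 scale, against a vehicle lowest of 12.20, median of 12.29 and highest of 12.47. All 3 treated arrays lay above every vehicle array. The difference was 0.27 ± 0.07 (SE, 1.20-fold, limma adjusted p = 0.0447). The call was kept without vehicle replicate 6 and was lost when any other of the 9 arrays was left out, with limma adjusted p between 0.0648 and 0.195, and median centring also ended it (limma adjusted p = 0.0711). Crot at this dose stood at -0.52 ± 0.18 (limma adjusted p = 0.157).

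At 489.2 mg/kg the set lay lower: 4 genes fell and 0 rose. The 4 were Crot, Crat, Acsl5 and Acot2, 10.3% of the 39 against 2.9% of all genes called in either direction and 1.39% called lower. By compartment 2 of 19 mitochondrial, 1 of 16 peroxisomal and 1 of 4 shared genes were called. Of the 39 differences 29 were below 0 and 10 above, with a median of -0.13, where 52.3% of all genes were above 0. The median was -0.13 for mitochondrial and -0.16 for peroxisomal genes, against 0.01 for all genes. Without replicate 3 of this dose 2 genes, Crot and Acsl5, were called, against 1.77% of all genes, the medians were -0.04 and -0.07, and 25 of the 39 lay below 0. Genes of the same pathways outside the set, described further below, mostly did not lie lower at this dose. Over all 3 arrays the median was 0.06 for 27 other genes listed for the mitochondrial pathway and 0.01 for 32 listed for the peroxisomal one. It was 0.12 for 9 other peroxins and -0.24 for 2 ketone body genes.

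The 2 carnitine acyltransferases counted as the export step had the lowest differences over all 3 arrays, Crat barely below Hacl1 (-0.65 and -0.64). Without replicate 3 Crot stayed the lowest, while Acsl5 (-0.64) lay below Crat (-0.43). Crot read 10.84, 10.83 and 10.12 at 489.2 mg/kg, against a vehicle lowest of 11.20, median of 11.64 and highest of 11.99. All 3 treated arrays lay below the whole vehicle range, and replicate 3 was the lowest. The fall was -1.06 ± 0.18 (SE, 2.08-fold lower, limma adjusted p = 0.00263), and without replicate 3 it was -0.82 (limma adjusted p = 0.0264). A second probe set of Crot with a mean level of 8.50 stood at -0.85, and another, dimmer one (5.91) at -0.11.

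Crat read 9.42, 9.24 and 8.67 at 489.2 mg/kg, against a vehicle lowest of 9.50, median of 9.77 and highest of 10.00. The groups did not overlap, but the nearest arrays were close. The fall was -0.65 ± 0.16 (SE, 1.57-fold lower, limma adjusted p = 0.0316). The call was lost without replicate 3 of this dose (-0.43, limma adjusted p = 0.211) and without vehicle replicate 1, 2 or 4 (limma adjusted p = 0.0557, 0.0618 and 0.0621).

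Among mitochondrial genes, Acsl5 read 11.20, 11.44 and 11.54 at 489.2 mg/kg, against a vehicle lowest of 11.69, median of 11.90 and highest of 12.29. All treated arrays lay below the vehicle range, and here replicate 1, not replicate 3, was lowest. The fall was -0.57 ± 0.12 (SE, 1.48-fold lower, limma adjusted p = 0.0144), and it did not pass without replicate 1 of this dose (-0.47, limma adjusted p = 0.156). Without replicate 3 it was -0.64 (limma adjusted p = 0.0233). The gene's other, dimmer probe set stood at 0.02, and the mean of both gave -0.27 (limma adjusted p = 0.0888).

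Acot2 read 9.53, 9.31 and 8.93 at 489.2 mg/kg, against a vehicle lowest of 9.65, median of 9.78 and highest of 9.89. The vehicle range was narrow and no treated array reached it. The fall was -0.52 ± 0.12 (SE, 1.44-fold lower, limma adjusted p = 0.0152), and it did not pass without replicate 3 of this dose (-0.36, limma adjusted p = 0.128). The gene's other probe sets stood at -0.72 and -0.38. Acot1, Acot2 and Acot3 are neighbouring, closely related genes on chromosome 6, so signal may be shared between their probes.

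In 6 of the 39 genes every 489.2 mg/kg array lay below every vehicle array, against 2.88% of all genes; Acot3 and Pex19 joined the 4 called genes. Acot3, the peroxisomal thioesterase, stood at -0.40 (limma adjusted p = 0.145) and Pex19, the receptor for new peroxisomal membrane proteins, at -0.35 (limma adjusted p = 0.306). Without replicate 3 Acot3 stood at -0.21 and Pex19 at -0.37. Hacl1 had one of the larger uncalled differences, -0.64 ± 0.21 (SE, limma adjusted p = 0.132). Its 489.2 mg/kg arrays read 10.96, 11.21 and 10.30, against a vehicle lowest of 10.97, so that the groups overlapped. Replicate 3 was the lowest, and without it the difference was -0.38 (limma adjusted p = 0.477).

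**Figure D2:**
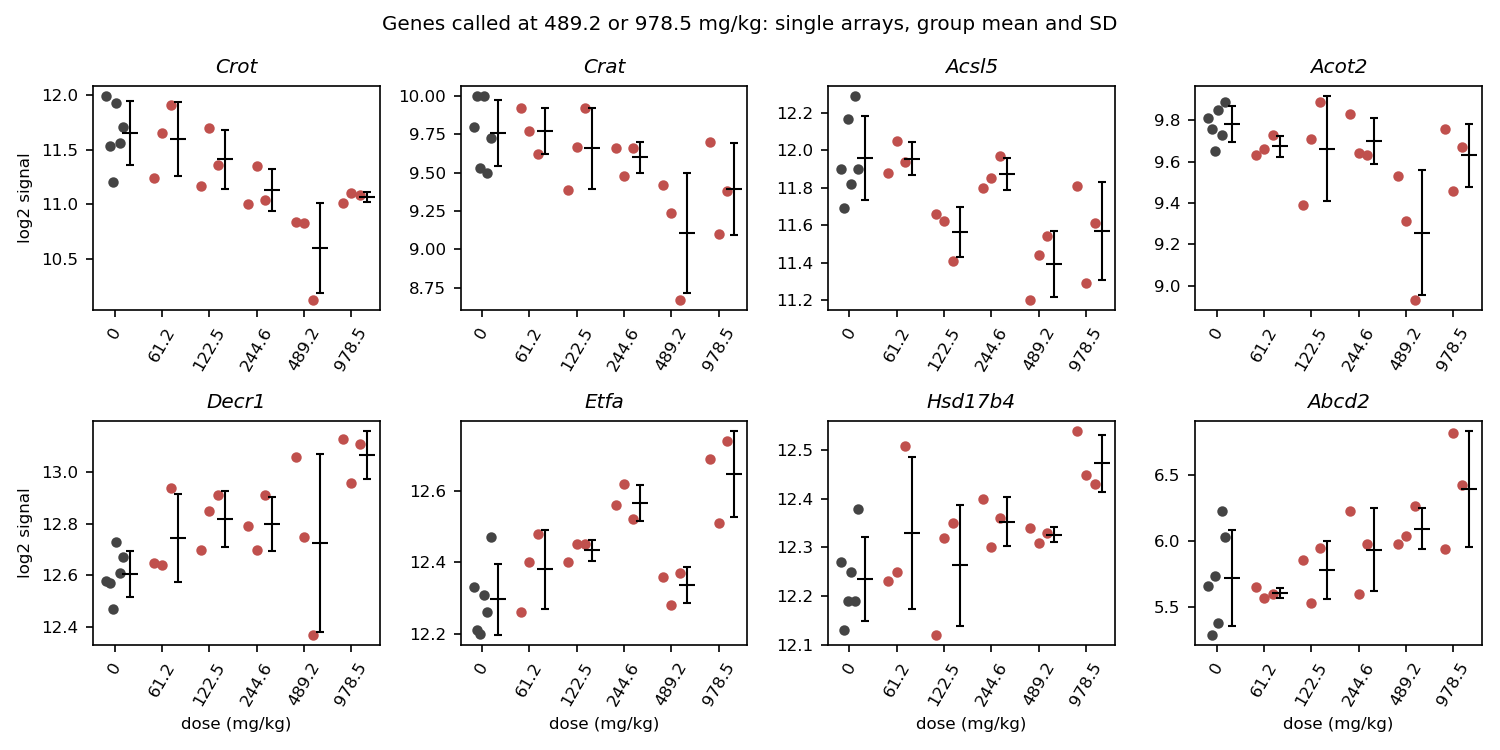
Log2 signal of the 8 genes called at 489.2 or 978.5 mg/kg, on every array by dose in mg/kg, vehicle arrays in grey and treated arrays in red, with group means and SD (n = 6 for the vehicle, 3 for each dose). Crot, Crat, Acsl5 and Acot2 have their lowest mean at 489.2 mg/kg, while Decr1, Etfa, Hsd17b4 and Abcd2 have their highest at 978.5 mg/kg.

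At 978.5 mg/kg, the highest dose, 4 genes rose and 1 fell. Decr1, Etfa, Hsd17b4 and Abcd2 rose and Crot fell, 12.8% of the 39 against 10.2% of all genes called in either direction. For rises the background was 6.18% and for falls 4.07%. The called share was close to that of all genes. By compartment 2 of 19 mitochondrial genes rose, and 2 of 16 peroxisomal genes rose and 1 fell. Of the 39 differences 25 were above 0, where 44.7% of all genes were. The median difference was 0.04 for mitochondrial genes and 0.08 for peroxisomal genes, against -0.02 for all genes. In 4 genes (Hadh, Decr1, Etfa and Hsd17b4) every 978.5 mg/kg array lay above all vehicle arrays, against 6.74% of all genes, and in 1, Crot, below them, against 6.79%. In 37 of the 39 genes the difference lay within 0.5 of the vehicle on the log2 scale.

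Decr1 read 13.13, 12.96 and 13.11 at 978.5 mg/kg, against a vehicle lowest of 12.47, median of 12.59 and highest of 12.73. The groups were well apart. The rise was 0.47 ± 0.11 (SE, 1.38-fold, limma adjusted p = 0.0107). The call was lost without replicate 1 (0.43, limma adjusted p = 0.0549) or replicate 3 of this dose (0.45, limma adjusted p = 0.0585). At 489.2 mg/kg Decr1 read 13.06, 12.75 and 12.37, so that 2 arrays lay above every vehicle array and replicate 3 below all of them.

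Etfa read 12.69, 12.51 and 12.74 at 978.5 mg/kg, against the vehicle highest of 12.47. Every treated array was above the vehicle range, as at 244.6 mg/kg, whereas the 489.2 mg/kg arrays, at 12.36, 12.28 and 12.37, lay inside it. The rise was 0.35 ± 0.07 (SE, 1.27-fold, limma adjusted p = 0.00362) and was kept in every alternative run. Etfb, the partner subunit, stood at -0.05 (limma adjusted p = 0.699), and Etfdh, which passes the electrons to ubiquinone, at 0.01 (limma adjusted p = 0.977).

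Hsd17b4 read 12.54, 12.45 and 12.43 at 978.5 mg/kg, against a vehicle lowest of 12.13, median of 12.22 and highest of 12.38. The groups did not overlap, by a narrow gap. The rise was 0.24 ± 0.07 (SE, 1.18-fold, limma adjusted p = 0.0415), and the call was kept without vehicle replicate 6 and lost when any other of the 9 arrays was left out, with limma adjusted p between 0.0547 and 0.167. A second quantile normalisation also ended it (0.19, limma adjusted p = 0.0829).

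Abcd2 read 5.94, 6.82 and 6.43 at 978.5 mg/kg, against a vehicle lowest of 5.29, median of 5.70 and highest of 6.23. Replicate 1 lay inside the vehicle range and the other two above it. The rise was 0.68 ± 0.20 (SE, 1.60-fold, limma adjusted p = 0.0324), at a level below that of most genes. The call was lost without replicate 2 (limma adjusted p = 0.184) or 3 (limma adjusted p = 0.121) of this dose, and without vehicle replicate 1, 2 or 4 (limma adjusted p = 0.0536, 0.0632 and 0.0597). Abcd3, the transporter for branched and long chains, stood at 0.14 (limma adjusted p = 0.413).

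Crot at 978.5 mg/kg read 11.01, 11.10 and 11.08, all below the vehicle lowest of 11.20. The fall was -0.59 ± 0.18 (SE, 1.51-fold lower, limma adjusted p = 0.0433). The call was kept without vehicle replicate 3 and lost when any other of the 9 arrays was left out, with limma adjusted p between 0.0519 and 0.135. The gene's other probe sets stood at -0.40 and 0.06. The mean of all 3 gave -0.31 (limma adjusted p = 0.18), and median centring of the arrays also ended the call (-0.58, limma adjusted p = 0.0557). Crat stood at -0.37 ± 0.16 (limma adjusted p = 0.159) and Acsl5 at -0.39 ± 0.12 (limma adjusted p = 0.0501). Acsl5 passed without 3 single arrays, vehicle replicate 2, vehicle replicate 4 and replicate 1 of this dose, each left out in turn.

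The other genes, by role, did not pass at 978.5 mg/kg. Of the 4 genes of activation and import, Cpt2, which turns acylcarnitine back into acyl-CoA, stood at 0.32 (limma adjusted p = 0.185) and the carrier Slc25a20 at 0.27 (limma adjusted p = 0.151), while Acsl1 was at 0.01. The 5 acyl-CoA dehydrogenases ranged from -0.14 for Acadm to 0.16 for Acads, the short-chain enzyme. The 4 genes of the later steps ranged from -0.22 for the thiolase Acaa2 to 0.12 for Hadh. Beside Decr1, the genes for unsaturated chains stood at -0.05 for Eci1 and 0.16 for Eci2 (limma adjusted p = 0.91 and 0.256), both of them enoyl-CoA isomerases. The 3 thioesterases lay between -0.15 for Acot2 and -0.05 for Acot3. Among the 5 genes of peroxisomal beta-oxidation, Ehhadh, the L-bifunctional enzyme, was at 0.27 (95% interval 0.06 to 0.48, limma adjusted p = 0.0974) and Acox3 at -0.20. The 3 genes for branched chains lay between -0.24 for Hacl1 and 0.02 for Amacr. The 4 peroxisome biogenesis genes were all above 0, up to 0.32 for Pex11a, which drives peroxisome elongation (95% interval -0.08 to 0.72, limma adjusted p = 0.322); a dimmer probe set of Pex11a stood at 0.67. Catalase was at 0.03 (95% interval -0.12 to 0.19).

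Nearly the whole set read higher at 978.5 mg/kg than at 489.2 mg/kg, but no single gene passed. Of 39 genes 36 were above 0 in that contrast, with a median of 0.23, where 43.9% of all genes were above 0 with a median of -0.02. This held in 18 of 19 mitochondrial genes (median 0.20), 15 of 16 peroxisomal genes (median 0.29) and 3 of 4 shared genes (median 0.23). The genes below 0 were Acox2, Acot1 and Acadvl, the very long-chain dehydrogenase. Limma called 0 of the 39, against 0.106% of all genes, with 14 at an unadjusted p under 0.05 (13.6% of all genes). The largest difference was that of Pex11a, 0.61 ± 0.22 (SE), with arrays at 9.42, 9.42 and 9.60 at 978.5 mg/kg against 9.53, 8.78 and 8.29 at 489.2 mg/kg. Replicate 1 at 489.2 mg/kg lay within the 978.5 mg/kg values, and the limma adjusted p was 0.238. Without replicate 3 at 489.2 mg/kg the difference of Pex11a was 0.32 (limma adjusted p = 0.54). With that array left out 29 of the 39 were above 0 and the median was 0.13, with 0 called, against 0.0211% of all genes. Without replicate 2 at 978.5 mg/kg 2 genes, Etfa and Pex19, were called, against 0.886% of all genes.

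**Figure D3:**
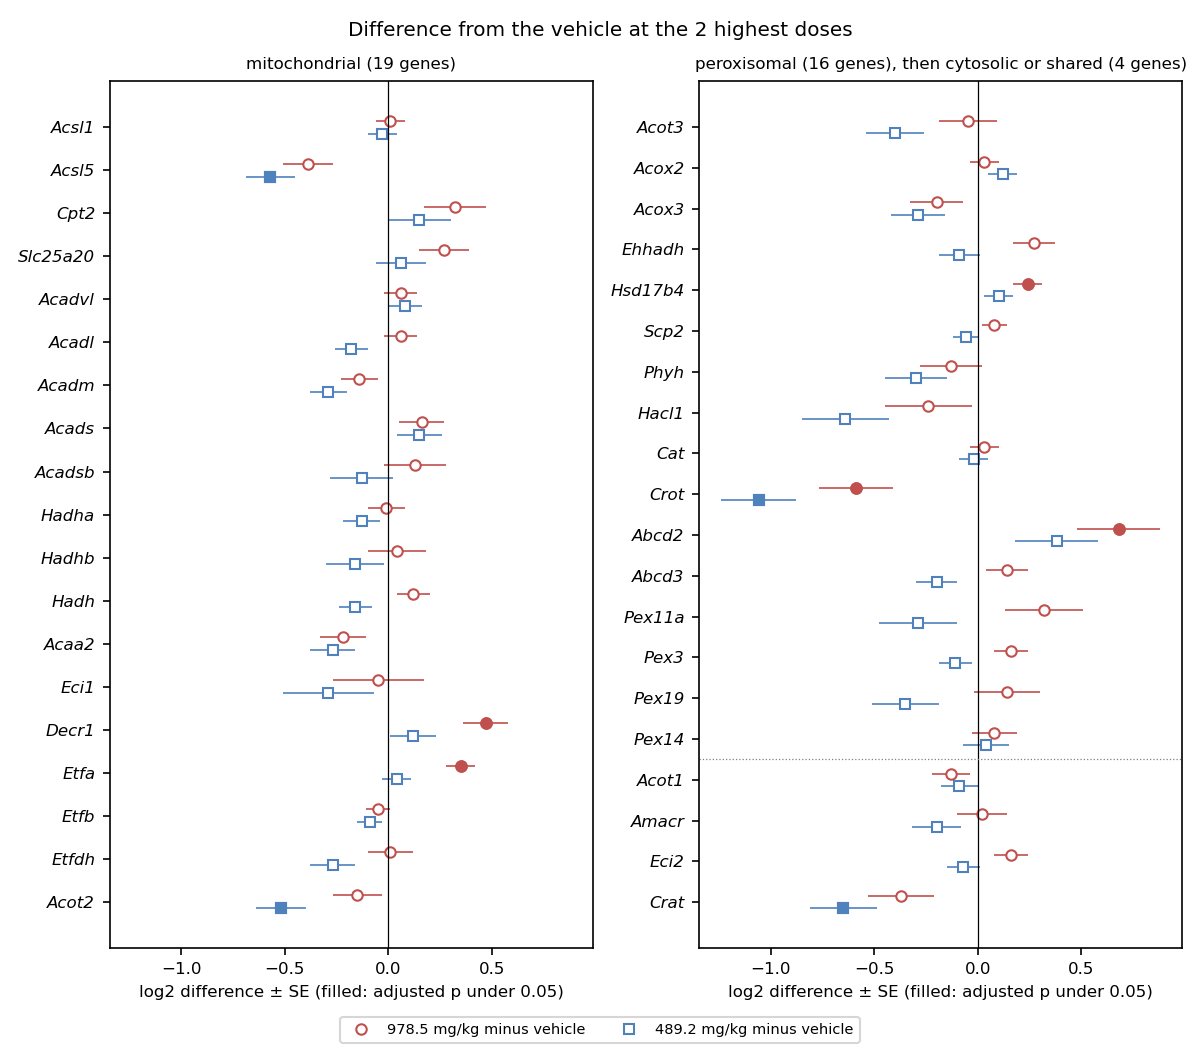
Log2 difference from the vehicle (x axis, with SE) at 978.5 and at 489.2 mg/kg for each of the 39 genes, mitochondrial genes in one panel, peroxisomal and shared genes in the other; filled points passed the adjusted test. In 36 of the 39 genes the point for 978.5 mg/kg lies to the right of that for 489.2 mg/kg.

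A trend over dose rank, from 0 for the vehicle to 5 for the highest dose, passed for 7 genes. Crot, Crat, Acsl5 and Acadm fell with dose rank and Decr1, Etfa and Abcd2 rose, 17.9% of the 39 against 11.2% of all genes. The background was 6.06% for rising and 5.12% for falling trends. Crot fell by 0.18 ± 0.035 per rank on the log2 scale (SE, limma adjusted p = 0.00194). Its group means were, over rising dose from the vehicle on, 11.65, 11.60, 11.41, 11.13, 10.60 and 11.06. The lowest mean was thus at 489.2 mg/kg, and a straight line does not describe that return. Abcd2 rose by 0.13 ± 0.033 per rank (limma adjusted p = 0.0118), with means of 5.72, 5.61, 5.78, 5.94, 6.10 and 6.40 over rising dose from the vehicle on. Its means climbed at every step from 61.2 mg/kg on.

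For Acadm the slope was -0.05 ± 0.016 per rank (limma adjusted p = 0.0471). Its arrays read 12.91, 13.13 and 12.65 at 489.2 mg/kg and 13.18, 12.86 and 13.08 at 978.5 mg/kg, against a vehicle lowest of 13.10, median of 13.16 and highest of 13.28. The groups overlapped. Slopes were -0.10 for Crat and -0.10 for Acsl5 (limma adjusted p = 0.0207 and 0.0142), and 0.07 for Decr1 and 0.05 for Etfa (limma adjusted p = 0.0287 and 0.0228). With the mean over all probe sets of a gene the slope of Acsl5 was -0.052 (limma adjusted p = 0.0287) and that of Crot -0.11 (limma adjusted p = 0.0124). On dose in mg/kg the trends of Acadm, Acsl5 and Crat did not pass (limma adjusted p = 0.176, 0.0609 and 0.0593), and with median centring that of Acadm did not (limma adjusted p = 0.0717). Without replicate 3 at 489.2 mg/kg 9 genes passed, against 12.2% of all genes, with Acadm no longer among them (limma adjusted p = 0.0644) and Cpt2, Slc25a20 and Hsd17b4 added. Without replicate 2 at 978.5 mg/kg 4 passed, against 9.18% of all genes, the calls of Crat, Decr1 and Acadm being lost (limma adjusted p = 0.0586, 0.0555 and 0.115). The trend of Etfa was lost without replicate 1 (limma adjusted p = 0.0771) or 3 (limma adjusted p = 0.0755) of that dose. Decr1 lost it without any of the 3 arrays of that dose, replicate 1 at 489.2 mg/kg, or vehicle replicate 1, 2 or 3, with limma adjusted p between 0.0502 and 0.096. Acadm kept it without vehicle replicate 1, replicate 2 at 489.2 mg/kg or replicate 1 or 3 at 978.5 mg/kg and lost it without any other array, with limma adjusted p between 0.0523 and 0.115. With the 978.5 mg/kg arrays left out the trend passed in 3 genes, Acadm, Acsl5 and Crot, against 3.43% of all genes. Among treated arrays alone it passed in 1, Abcd2, against 3.1% of all genes.

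**Figure D4:**
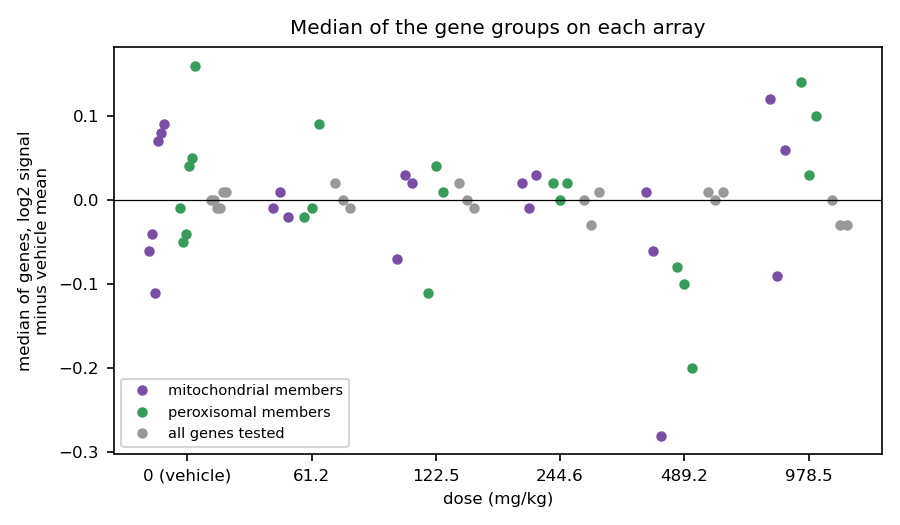
Median over the mitochondrial (purple), the peroxisomal (green) and all genes (grey) of the log2 signal minus the vehicle mean, on each of the 21 arrays, by dose in mg/kg. The mitochondrial and peroxisomal medians are lowest on replicate 3 at 489.2 mg/kg, at -0.28 for mitochondrial and -0.20 for peroxisomal genes.

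Array by array, mitochondrial genes moved together more than peroxisomal ones did. After group means were removed, the median correlation over the 21 arrays was 0.36 among the 171 pairs of mitochondrial genes and 0.05 among the 120 pairs of peroxisomal genes. Across the 304 pairs of a mitochondrial with a peroxisomal gene it was 0.20, higher than among peroxisomal genes alone. It was 0.00 over all pairs of genes and 0.05 over pairs among genes in the top 10% by level. A correlation over 0.5 was found in 34.5% of mitochondrial, 10.0% of peroxisomal and 21.4% of mixed pairs, against 5.33% of all pairs. Without replicate 3 at 489.2 mg/kg the medians were 0.24 for mitochondrial and 0.03 for peroxisomal genes. The points share arrays and RNA preparations, so these values only describe the arrays.

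Further genes of the same pathways were read from lists of general knowledge. Of 27 other genes listed for mitochondrial fatty acid oxidation, the receptor Ppara among them, 5 rose and 3 fell at 978.5 mg/kg, with a median of 0.08. That is 29.6% called, against 10.2% of all genes. Acsm5, a medium-chain acyl-CoA synthetase, averaged 9.42 ± 0.16 (SD, n = 3) at 978.5 mg/kg and 8.42 ± 0.32 (SD, n = 6) in the vehicle (limma adjusted p = 5.9e-04). Acad9, which is also needed to assemble respiratory complex I, rose by 0.59 ± 0.09 (limma adjusted p = 2.51e-04). Acot13, a thioesterase, rose by 0.39, Acad8, which acts in valine breakdown, by 0.45 and the receptor Ppara by 0.51. Acsm3, a further medium-chain synthetase, stood at -0.57 ± 0.14 (limma adjusted p = 0.0111), and Cpt1b and Ucp2 fell too. Cpt1a, which sets the entry of long chains into mitochondria, averaged 11.04 ± 0.38 (SD, n = 3) at 978.5 mg/kg and 11.92 ± 0.77 (SD, n = 6) in the vehicle. Its difference of -0.88 ± 0.33 did not pass (limma adjusted p = 0.0933), while its trend of -0.19 per rank did (limma adjusted p = 0.0201).

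Of 32 other genes listed for peroxisomal oxidation 3 rose and 3 fell at 978.5 mg/kg (18.8%, against 10.2% of all genes), with a median of 0.17. Hao2, a hydroxyacid oxidase, averaged 11.73 ± 0.45 (SD, n = 3) at that dose and 12.75 ± 0.11 (SD, n = 6) in the vehicle. It fell by 1.01 ± 0.16 on the log2 scale (SE, limma adjusted p = 5.52e-04), and had already fallen at 489.2 mg/kg (-0.94 ± 0.16, limma adjusted p = 0.00279). Hao1, the glycolate oxidase, fell by 0.29 and Slc27a5, which activates bile acids, by 0.43. Acbd5, an acyl-CoA binding protein of the peroxisomal membrane, rose by 0.39, Nudt12 by 0.39 and the carrier Slc25a17 by 0.34. Of 9 other peroxins 1 was called (11.1%, against 10.2% of all genes). It was Pex7, the import receptor for a small group of matrix proteins, which rose by 0.56 (limma adjusted p = 0.00137). Of the ketone body genes Acat1, the acetoacetyl-CoA thiolase, rose by 0.56 (limma adjusted p = 0.0302), and Bdh1 stood at -0.34.

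Other cell types and the clock moved alongside. The list median of hepatocyte markers on single arrays lay between -0.07 and 0.01 at 978.5 mg/kg and between -0.03 and 0.01 in the vehicle, and Alb stood at -0.01. Periportal hepatocyte markers ran from -0.31 to -0.04 at 978.5 mg/kg and from -0.13 to 0.12 in the vehicle. Of 11 such markers 3 fell (Asl, Hal and Sds) and 1 rose (Arg1), 36.4% against 10.2% of all genes, with a median difference of -0.19. Red blood cell markers had list medians from -1.74 to -0.96 at 978.5 mg/kg and from -0.84 to 0.35 in the vehicle, with 3 of 5 called lower. At that dose 4.07% of all genes were called lower. Macrophage markers ran from -0.79 to -0.38 at 978.5 mg/kg and from -0.37 to 0.21 in the vehicle, with 1 of 11 called lower. Endothelial and stellate cell markers ran from -0.62 to -0.13 at 978.5 mg/kg and from -0.21 to 0.28 in the vehicle. At 978.5 mg/kg 10 of 11 were below 0 and 1, Reln, was called lower. At 61.2 mg/kg all 11 already lay below 0, with a median difference of -0.2. The list median of these markers was lowest on replicate 1 in every group. At 489.2 mg/kg the medians ran from -1.55 to -0.44 for red blood cells and from -1.31 to 0.08 for macrophages, lowest on replicate 1 in both, while replicate 3, the array lowest in 19 of the 39 genes, stood at -0.44 and 0.04. In bulk tissue fewer cells of a type and less RNA per cell cannot be told apart. Of 13 clock genes 5 rose and 3 fell at 978.5 mg/kg (61.5%, against 10.2% of all genes), with Dbp at 2.87 and Npas2 at -1.75. At 489.2 mg/kg the clock list had 5 called higher and 2 lower (53.8%, against 2.9% of all genes). The part of these shifts in the results for the 39 genes was not tested.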

How the data were processed

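The unit is the log2 signal of the authors' deposited table, which the submitters' processing notes say was made by robust multi-array averaging (RMA); its version is not given in the sources used here. Per the labels' protocols 100 ng of total RNA went into each array. Of the 31099 probe sets on the 21 arrays, 20832 had 1 gene in the annotation, 436 several and 9831 none. Of each of the 14218 genes the brightest probe set by mean was used.

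Limma 3.58.1 in R 4.3.3 fitted 1 mean per group over all arrays, without further scaling, with Benjamini-Hochberg adjustment over all genes and a call at 0.05. Each dose was set against the 6 vehicle arrays and 978.5 against 489.2 mg/kg, and a slope was fitted on dose rank. The code was tested on simulated data. Python 3.11.15, pandas 2.3.3 and matplotlib 3.10.9 made the summaries and figures. The 3 arrays per dose limit the precision.

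The genes and lists were chosen with earlier results of these data known, so a list gets counts and medians and no test. Every one of the 39 genes is accounted for. Called genes are given by array, and others by their value or by the range of their role, naming the one furthest from the vehicle. Of other pathway lists the called genes with the smallest p are named, and Cpt1a in any case. Replicate 3 at 489.2 mg/kg, the reading of a pair of short motifs, and some uncalled genes were singled out after values were seen. Alternatives were averaging over all probe sets of a gene, only genes brighter than the median gene, a robust eBayes fit with a variance trend, median centring, a second quantile normalisation, the replicate number as a block, only the arrays compared, dose in mg/kg, and each array left out. Trends without 978.5 mg/kg and over treated arrays alone, and the compartment medians under each alternative, were added after the data were seen.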

Additional observations from a re-analysis of the deposited data

Results flagged for a closer look

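Eci1, the mitochondrial enoyl-CoA isomerase for unsaturated chains, had 1 vehicle array apart from the rest. Vehicle replicate 3 read 11.85 on the log2 scale, while the other vehicle arrays lay between 12.25 and 12.37. The gap took up a share of 0.768 of the group's range, above the critical share of 0.625 for 6 arrays. Chance gives such a gap in about 1 of 20 groups, and 42 were looked at.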

How the results depend on the processing

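With one array left out at a time, the number of the 39 genes called was 0 to 0 at 61.2 and at 122.5 mg/kg, 0 to 1 at 244.6 mg/kg, 2 to 5 at 489.2 mg/kg, 1 to 5 at 978.5 mg/kg, 0 to 2 for 978.5 against 489.2 mg/kg and 4 to 9 for the trend. The 1 call at 978.5 mg/kg came without replicate 3 of that dose and was Etfa. At 489.2 mg/kg the median ran from -0.2 to -0.04 for mitochondrial and from -0.21 to -0.07 for peroxisomal genes. At 978.5 mg/kg it ran from 0.00 to 0.11 for mitochondrial and from 0.05 to 0.09 for peroxisomal genes. With only the arrays compared 0 genes were called at 244.6 mg/kg, 1 at 489.2 mg/kg (Crot) and 3 at 978.5 mg/kg (Crot, Decr1 and Etfa). Median centring gave 0 at 244.6 mg/kg. For the fits of this paragraph the share of all genes called is given only where it was stated above. Without that share, a change in these counts cannot be told from a change across all genes. The trend passed in 3 genes without the 978.5 mg/kg arrays and in 1 among treated arrays alone.

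Whether the replicate numbers of the labels pair the arrays was not settled. Same-numbered arrays of different groups had a median residual correlation of 0.06 over 45 pairs, from -0.23 to 0.37. For other-numbered arrays it was -0.02 over 135 pairs, from -0.33 to 0.33. The list median of endothelial and stellate cell markers was lowest on replicate 1 in every group, at -0.21 in the vehicle and -0.62 at 978.5 mg/kg. With the replicate number as a block 0 genes were called at 244.6 mg/kg, 1 at 489.2 mg/kg (Crot), 4 at 978.5 mg/kg and 5 for the trend. The share of all genes called in the block fit is not given here, so these counts cannot be set against it. The mitochondrial median at 978.5 mg/kg was 0.15 in that fit.

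Over 17 calls of single genes, 368 further fits were run: 270 kept the call, 98 lost it and 0 turned its direction. Crot at 489.2 mg/kg and Etfa at 978.5 mg/kg kept theirs in 16 of 16 each. The cause of the lost calls was not tested. Acot1 lay near the lowest signals, where a change could not be read.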
